A study of Mus musculus with 18 samples.

Results

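The effect of losing Nrf2 on gene expression in mouse liver was set against the effect of lowering Keap1. The members were 12 of the 18 single-colour arrays of the series, taken by their genotype labels, with 3 arrays in each of 4 groups. The groups were Nrf2 KO (Nrf2-/-), Nrf2 Control (Nrf2+/+), Keap1 KD (Keap1 Kd/-) and Keap1 Control (Keap1 Kd/+). Both Keap1 groups carried a Kd allele, which stood beside a second, null allele in Keap1 KD mice and beside a wild-type allele in their controls. All mice were female and 6 weeks old, and no treatment is given. The strain is labelled C57BL/6 for both Nrf2 groups and Mixed for both Keap1 groups, so strain was the same within each effect and differed between them. The labels do not say whether the arrays of a group came from separate animals, so the p-values measure only the spread between these arrays.

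NRF2, encoded by Nfe2l2, is a transcription factor that pairs with small MAF proteins and binds antioxidant response elements. Its known targets in liver make and use glutathione, reduce quinones, conjugate drugs and export the conjugates. KEAP1 is the adaptor through which a CUL3 ubiquitin ligase marks NRF2 for degradation, and NRF2 accumulates when KEAP1 is modified by electrophiles or is scarce. A gene that is lower without NRF2 at rest and a gene that is higher when NRF2 accumulates need not be the same, and the labels' design of a loss and a gain, each with its own control, allows them to be compared.

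A level is the log2 signal of a gene relative to the 75th percentile of its array. The Nrf2 effect is the mean level in Nrf2 KO minus that in Nrf2 Control, and the Keap1 effect is the mean in Keap1 KD minus that in Keap1 Control. The difference of effects is the Nrf2 effect minus the Keap1 effect, so a gene that fell with Nrf2 loss and rose with Keap1 lowering has a difference below 0. The sum of the 2 effects is 0 where opposite effects are equal in size, and it was used to tell a gene that moved more in 1 line from a gene that moved alike in both. It was below 0 for 21 genes (0.119%) and above 0 for 4 (0.0226%). Errors of effects are standard errors (SE) of the fit of 6 group means over all 18 arrays with limma, and calls were made at an adjusted p below 0.05, taken over all 17721 genes tested. Statements that groups were apart mean that no array of 1 group lay within the range of the other; over all genes this held for 11.2% lower and 9.71% higher in Nrf2 KO, and for 5.68% higher and 11.4% lower in Keap1 KD. In liver tissue a lower signal can mean fewer cells of a type or less RNA per cell, and these cannot be told apart.

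Slides did not balance the groups. The 3 Nrf2 Control arrays shared a slide with Keap1 Control 1, and no slide and no scan date held both an Nrf2 KO and an Nrf2 Control array, so within the Nrf2 line genotype and slide cannot be told apart directly. With slide as a block the Nrf2 effect is reached only through Keap1 Control 1, an array of the other line and strain label. Nrf2 KO 1 was alone on its slide and adds nothing to that fit, which has fewer degrees of freedom. The difference of effects could still be taken within slides over 7 arrays, an alternative chosen after seeing the data. Nrf2 KO 3 shared a slide with Keap1 KD 1 and 2, and the controls of both lines shared another. Between 52.1 and 58.8% of the spots were well above background on the Nrf2 KO arrays, and between 51.3 and 52.6% on the Nrf2 Control arrays. The range was 49.95 to 55.5% for Keap1 KD and 56.3 to 65.0% for Keap1 Control, with Keap1 Control 3 highest. Within groups the arrays correlated at 0.973 to 0.991 over all genes.

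Markers of the labelled tissue were present in every group. The summed linear signal of the 18 measured hepatocyte markers, of 24 listed, was 4055 to 4751 times the 75th percentile in Nrf2 KO and 4147 to 4357 in Nrf2 Control. It was 3637 to 5218 in Keap1 KD and 3518 to 5267 in Keap1 Control. Of the lists for other cell types, the 5 erythroid markers measured of 10 summed to 205 to 358 in Nrf2 KO and 409 to 510 in Nrf2 Control, and the 7 neutrophil markers measured of 10 summed to 6.27 to 13.2 in Nrf2 KO and 3.49 to 5.36 in Nrf2 Control. The 17 stellate cell markers summed to 157 to 192 in Keap1 KD and 195 to 254 in Keap1 Control. These 3 sums did not overlap between the groups named, and their part in the results was not tested. The same lists in the other line, and all other lists in both lines, had sums that overlapped. Among all genes groups were apart for 11.2% lower and 9.71% higher in Nrf2 KO, and for 11.4% lower and 5.68% higher in Keap1 KD. These shares are of single genes and not of sums over lists, so they do not tell how often such sums would be apart. Whether cell types shifted was not tested. Among all marker lists for other cells, 1 gene was called in the difference of effects, Trem2 of macrophages (-1.98, adjusted p = 0.0369). It was called in 4 of the 12 fits with 1 array left out, and the macrophage list had 0 calls with quantile normalization, with normexp and quantile normalization, and with slide as a block.

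The targeted genes separated the groups. Nfe2l2 had levels of -5.84, -5.52 and -3.08 in Nrf2 KO, against 3.38, 3.59 and 3.20 in Nrf2 Control. Its levels were 3.04, 3.62 and 3.31 in Keap1 KD and 3.43, 3.69 and 3.40 in Keap1 Control. The Nrf2 KO arrays lay far below the rest, Nrf2 KO 3 was the highest of them, and 1 of the 3 was above background; the Keap1 groups overlapped. The Nrf2 effect was -8.20 ± 0.48 (SE, adjusted p = 4.89e-07) and the Keap1 effect -0.18 ± 0.48 (adjusted p = 0.912). A second Nfe2l2 probe gave an Nrf2 effect of -7.30, and the position of both probes relative to the deletion was not checked. Keap1 had levels of 1.82, 1.85 and 1.94 in Keap1 KD, against 4.54, 4.88 and 3.33 in Keap1 Control, which was 5.22-fold lower with no overlap (Keap1 effect -2.38 ± 0.31, adjusted p = 0.0013). Its levels were 4.32, 4.23 and 4.30 in Nrf2 KO and 3.56, 4.48 and 4.47 in Nrf2 Control, where the groups overlapped.

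The difference of effects was called for 551 of the 17721 genes, or 3.11%. It was below 0 for 178 genes (1%) and above 0 for 373 genes (2.1%). Nfe2l2 itself had the lowest difference of the genes with a symbol. Among those above background on all 12 arrays, the lowest were enzymes of detoxification: Cbr3, Gpx2, Ces2b, Nqo1, Aox1, Gsta2 and Gsta1 had differences of -6.73 to -4.34. Of the 178 genes, 151 (84.8%) had a gene symbol, against 72.6% of all genes tested. Of the 373 genes above 0, 72 (19.3%) had one, and 225 of the 301 without a symbol were listed as clones whose names begin with AK. Such names belong to 46.8% of all genes without a symbol. The split depended on the scaling: with quantile normalization it was 139 below and 137 above 0, and with each array scaled to its median it was 298 below and 114 above, where the median difference of all genes was -0.35, against 0.01 in the main scaling. Leaving out 1 array gave 82 to 168 genes below 0 and 96 to 498 above. The calls below 0 dropped by more than 1.5 times without Nrf2 KO 1 (82), Nrf2 KO 2 (118), Nrf2 KO 3 (92) or Nrf2 Control 3 (107). Those above 0 did so without Nrf2 Control 1 (236), Nrf2 Control 3 (105), Nrf2 KO 1 (96), Nrf2 KO 2 (200), Nrf2 KO 3 (149), Keap1 Control 3 (131) or Keap1 KD 1 (190). In all 12 such fits 150 genes were called, 76 below and 74 above 0.

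**Figure D1:**
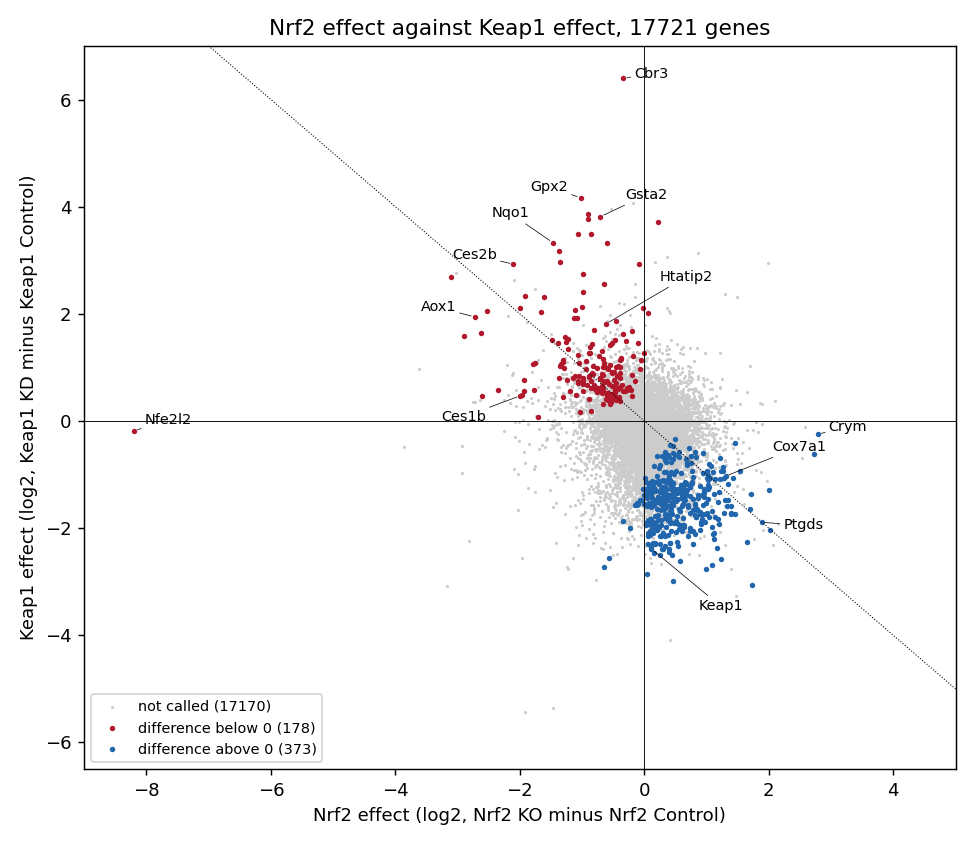
The Nrf2 effect (x axis, log2) is plotted against the Keap1 effect (y axis, log2) for 17721 genes. Red points are the 178 genes with a called difference below 0, blue points the 373 above 0, grey points the others, and the dotted line marks equal and opposite effects. Cbr3 stands near 0 on the x axis and at 6.40 on the y axis, Nfe2l2 at -8.20 and -0.18, and Aox1 and Nqo1 lie in the upper left.

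The Nrf2 effect was called for 11 genes (0.0621%), 10 lower (0.0564%) and 1 higher (0.00564%) in Nrf2 KO, while 1577 genes had an unadjusted p under 0.05. The Keap1 effect was called for 991 genes (5.59%), 172 higher (0.971%) and 819 lower (4.62%) in Keap1 KD. Both effects had the same median SE, 0.244, which follows from the fit, since it pools the spread of each gene over all groups. It does not compare the spread of the arrays between the lines. Of the 819 lower genes 97 (11.8%) had a symbol, and 722 did not. Without Keap1 Control 3, the array with the highest share of spots above background, 262 genes were lower and 94 higher in Keap1 KD, and without Keap1 KD 1 or 3 the lower genes numbered 380 and 471. The Nrf2 calls numbered 6 without Nrf2 KO 1, 17 without Keap1 Control 1 or 3 and 20 without Keap1 Control 2. For the Keap1 effect, quantile normalization gave 403 lower and 152 higher, and scaling to the array median gave 352 lower and 350 higher. The 2 lists of calls shared 6 genes, which was 54.5% of the Nrf2 calls and 0.605% of the Keap1 calls.

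All 6 shared genes moved in opposite directions, and 0 genes were called in the same direction in both lines by limma. This did not hold in every fit: with slide as a block 1 gene was opposed and 2 moved in the same direction, scan date as a block gave the same counts, and without Keap1 Control 1 there was 1 in the same direction. At an unadjusted p under 0.05 in both effects, 327 genes had opposite signs and 59 the same sign. Lower in Nrf2 KO and higher in Keap1 KD were Nqo1, Aox1, Ces1g, Srsf3 and a probe listed as NAP057074-1, which has no gene name here. Cox7a1 was higher in Nrf2 KO and lower in Keap1 KD. None of the 6 had a called sum of effects, so neither effect was shown to be the larger.

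Nqo1 encodes a quinone reductase and is often used as a readout of NRF2. Its levels were -1.18, -0.81 and -0.79 in Nrf2 KO, against 0.73, 0.75 and 0.16 in Nrf2 Control. Levels in Keap1 KD were 3.68, 4.05 and 3.94, against 0.86, 0.13 and 0.69 in Keap1 Control. Neither pair overlapped, and the controls of both lines covered about the same range. Nqo1 was 2.77-fold lower in Nrf2 KO (Nrf2 effect -1.47 ± 0.25, adjusted p = 0.0392) and 10.1-fold higher in Keap1 KD (Keap1 effect 3.33 ± 0.25, adjusted p = 6.74e-06). The sum of effects was 1.86, with a 95% interval of 1.12 to 2.60 and an adjusted p of 0.0526. Its Nrf2 effect stayed between -1.66 and -1.34 when 1 array was left out, but was called in 5 of those 12 fits (highest adjusted p = 0.263), and fitting slide as a block brought it to -0.79 (adjusted p = 0.745). The calls were lost without any 1 of the Nrf2 KO arrays, Nrf2 Control 1 or 2, or Keap1 KD 2 or 3.

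Aox1, an aldehyde oxidase of drug and retinal oxidation, had a larger estimated change in Nrf2 KO than in Keap1 KD, though the sum of effects did not pass the test. Its levels were 0.54, 0.88 and 0.72 in Nrf2 KO, against 3.86, 3.25 and 3.21 in Nrf2 Control. In Keap1 KD they were 4.96, 4.85 and 5.12, against 2.69, 2.92 and 3.50 in Keap1 Control. The groups were apart in both lines. Aox1 was 6.62-fold lower in Nrf2 KO (adjusted p = 1.17e-05) and 3.85-fold higher in Keap1 KD (adjusted p = 0.000573), with a difference of -4.67 ± 0.31. The sum was -0.78 (95% interval -1.44 to -0.12, adjusted p = 0.351).

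Ces1g, a carboxylesterase that hydrolyses esters of drugs and lipids, had levels of 4.07, 3.90 and 4.28 in Nrf2 KO, against 5.87, 6.14 and 5.62 in Nrf2 Control. It had 7.19, 7.26 and 6.87 in Keap1 KD, against 6.20, 5.81 and 6.12 in Keap1 Control. The order ran from Nrf2 KO through the overlapping controls to Keap1 KD, with effects of -1.80 ± 0.22 and 1.07 ± 0.22 and a difference of -2.86 ± 0.32 (adjusted p = 0.000355). Srsf3, a splicing factor and no known member of this pathway, moved less: its effects were -0.86 ± 0.13 and 0.62 ± 0.13. Its levels differed between the controls, with -1.03, -1.14 and -1.32 in Nrf2 Control and -2.16, -1.95 and -2.20 in Keap1 Control. The probe NAP057074-1 was not well above background on any Nrf2 KO array and was at least 4.25-fold lower there, with a Keap1 effect of 1.58 ± 0.43 (adjusted p = 0.0431).

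Cox7a1, a subunit of mitochondrial cytochrome c oxidase best known from muscle and heart, was the 1 gene called higher in Nrf2 KO. Its levels were 3.50, 3.68 and 3.73 in Nrf2 KO, against 2.64, 2.17 and 2.19 in Nrf2 Control. They were 2.28, 2.04 and 1.86 in Keap1 KD, against 3.48, 2.91 and 2.86 in Keap1 Control. It was 2.47-fold higher in Nrf2 KO and 2.04-fold lower in Keap1 KD, without overlap, and the difference was 2.33 ± 0.28 (adjusted p = 0.000775). The Nrf2 effects of Cox7a1 and Srsf3 were each called in 7 of the 12 fits with 1 array left out, that of NAP057074-1 in 8 and those of Aox1 and Ces1g in all 12. Those of Cox7a1 and Srsf3 were lost without any 1 of the Nrf2 KO arrays or without Nrf2 Control 2, that of Cox7a1 also without Nrf2 Control 3 (highest adjusted p = 0.113) and that of Srsf3 also without Nrf2 Control 1 (0.111). That of NAP057074-1 was lost without Nrf2 KO 1 or 3 or Nrf2 Control 2 or 3.

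**Figure D2:**
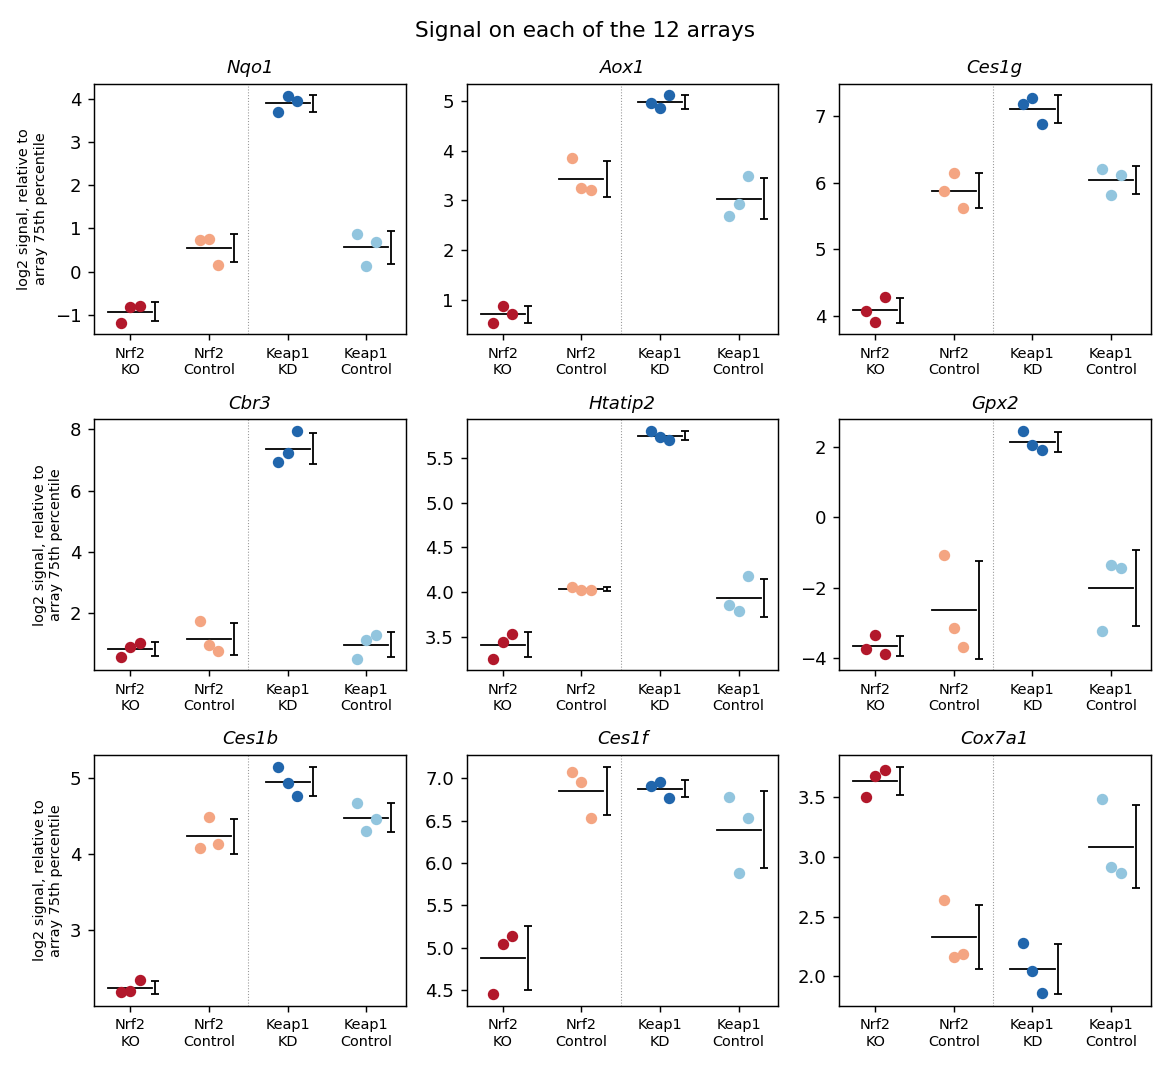
Levels of 9 genes are plotted on each of the 12 arrays (y axis, log2 signal relative to the 75th percentile of the array, with its own range in each panel). Points are arrays, lines are group means and bars are SD over 3 arrays. Nqo1, Aox1 and Ces1g run from Nrf2 KO lowest to Keap1 KD highest, Cbr3 is at 6.95 to 7.95 in Keap1 KD and below 2 in the other groups, and Ces1b is low in Nrf2 KO at 2.19 to 2.34.

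A gene counted as moved more by Nrf2 loss where its Nrf2 effect was called, its Keap1 effect was not, and both the difference and the sum were called with the sign of the Nrf2 effect. This held for 3 genes, Nfe2l2 itself, Ces1b and a probe listed as NAP030039-1, which has no gene name here. Ces1b, another carboxylesterase, had levels of 2.19, 2.20 and 2.34 in Nrf2 KO, against 4.07, 4.49 and 4.13 in Nrf2 Control. Its levels were 5.15, 4.94 and 4.77 in Keap1 KD, against 4.67, 4.30 and 4.47 in Keap1 Control. It was 3.97-fold lower in Nrf2 KO (adjusted p = 1.17e-05), while the Keap1 effect was 0.47 ± 0.16 (adjusted p = 0.113) although the Keap1 groups did not overlap. The sum of effects was -1.52 (95% interval -2.0 to -1.03, adjusted p = 0.0214). With slide as a block the Nrf2 effect of Ces1b was -1.77 and was not called (adjusted p = 0.283). NAP030039-1 had effects of -2.60 ± 0.16 and 0.47 ± 0.16 in the same order.

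Both remaining Nrf2 calls could not be placed. Ces1f, whose levels were 4.45, 5.04 and 5.14 in Nrf2 KO and 7.07, 6.96 and 6.53 in Nrf2 Control, had effects of -1.97 ± 0.23 and 0.48 ± 0.23, and its sum missed the threshold (adjusted p = 0.082). With slide as a block its Nrf2 effect was -1.18 and was not called (adjusted p = 0.558). Keg1, named for its expression in kidney, had effects of -2.36 ± 0.33 and 0.57 ± 0.33, and its sum also missed (adjusted p = 0.131). These genes were named after their values were seen. The carboxylesterases of the Ces1 group are close copies of each other, and whether their probes bind more than 1 of them was not tested. Of the 11 Nrf2 calls, 6 were made in each of the 12 fits with 1 array left out, Nfe2l2, Aox1, Ces1b, Ces1f, Ces1g and NAP030039-1.

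The reverse case, a gene moved more by Keap1 lowering, held for Cbr3 and Htatip2 among higher genes and for 5 lower genes, all listed as AK clones without a symbol. Cbr3, a carbonyl reductase, had levels of 0.59, 0.90 and 1.03 in Nrf2 KO, against 1.77, 0.98 and 0.79 in Nrf2 Control. In Keap1 KD they were 6.95, 7.23 and 7.95, against 0.53, 1.12 and 1.29 in Keap1 Control. The Keap1 KD arrays stood far above the other 9, among which the groups overlapped. Cbr3 was 84.3-fold higher in Keap1 KD (Keap1 effect 6.40 ± 0.46, adjusted p = 6.74e-06), against an Nrf2 effect of -0.33 ± 0.46 (adjusted p = 0.889). Its sum of 6.06 had a 95% interval of 4.67 to 7.45 and an adjusted p of 0.000797.

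Htatip2, an oxidoreductase also known as TIP30, had levels of 3.25, 3.44 and 3.53 in Nrf2 KO, against 4.05, 4.02 and 4.02 in Nrf2 Control. In Keap1 KD they were 5.80, 5.74 and 5.70, against 3.85, 3.78 and 4.17 in Keap1 Control. The Nrf2 groups were apart by a small step, with an effect of -0.62 ± 0.14 that missed the threshold (adjusted p = 0.196). The Keap1 effect was 1.81 ± 0.14 (3.51-fold, adjusted p = 1.22e-05), and the sum of 1.19 was called (adjusted p = 0.0325). For Htatip2 the test thus shows a larger response to Keap1 lowering, not the lack of one to Nrf2 loss. The number of such genes varied from 1 to 41 as 1 array was left out; it was 1 without Nrf2 KO 1, Nrf2 KO 2 or Nrf2 Control 2, and 41 without Keap1 KD 2. Without Nrf2 Control 3 it was 21, without Keap1 KD 1 it was 12, and it was 2 to 4 without Nrf2 KO 3, Keap1 Control 2, Keap1 KD 3 or Nrf2 Control 1.

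For the other 980 genes called in at least 1 effect, 237 of them with a symbol, the tests of unequal size did not place the gene. A Keap1 call beside a missed Nrf2 call therefore did not show that a gene needs NRF2 only when it accumulates.

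The Nrf2 and Keap1 effects share no arrays, so the Nrf2 effects of the genes chosen by their Keap1 calls can be described. Of the 172 genes higher in Keap1 KD, 138 (80.2%) had an Nrf2 effect below 0, against 49.2% of all genes. The median Nrf2 effect of the 172 was -0.35, against 0.01 over all genes. In 77 of them (44.8%) all Nrf2 KO arrays lay below all Nrf2 Control arrays, against 11.2% of all genes, and in 5 all lay above, against 9.71%. Of the 819 genes lower in Keap1 KD, 563 (68.7%) had an Nrf2 effect above 0, where 49.2% of all genes had one below 0. In 72 of the 819 (8.79%) all Nrf2 KO arrays lay above the controls, against 9.71% of all genes, so this count does not stand above that share. Over all 17721 genes the correlation of the effects was -0.19, given as a description since genes of the same arrays are not independent, and opposite signs were seen in 56.1%. Slides were shared across the lines, and the part of this in the counts was not tested.

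The antioxidant response element core TGACNNNGC, searched on both strands, was looked for in promoter windows of 250 bases before to 50 after a gene's start (RefSeq, GRCm38.p6). It was found for 1721 of the 10299 tested genes that matched a window (16.71%). It was found for 31 of 123 genes with a difference below 0 (25.2%), 9 of 57 above 0 (15.8%), 34 of 118 higher in Keap1 KD (28.8%) and 8 of 76 lower in Keap1 KD (10.5%). A gene counted if any of its windows matched, and genes with more windows have more room for a match. The 123 genes had 169 windows, the 57 had 72, the 118 had 150, the 76 had 95 and all 10299 had 13122. These shares are descriptions with no test, and a match is not a binding site. The stretches below show the match in capitals with up to 25 bases on each side, on the strand of the gene and before its start, for named genes. Of 38 named genes with a window 10 had a match; those of Srxn1 and Srsf3 lie after the start and are not shown, nor is a further match of Abcc4 and of Ugdh. Htatip2 was moved more by Keap1 lowering, Abcc4 and Ugdh rose in Keap1 KD, Lrtm1, Acox2 and Txnrd1 had called differences, Nfe2l2 is the gene of NRF2 itself, and Gclm, a known target, is shown because it missed every test.
Htatip2 (chr7:49759438-49759496, plus strand): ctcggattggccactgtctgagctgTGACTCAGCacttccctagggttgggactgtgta
Abcc4 (chr14:118676932-118676979, minus strand): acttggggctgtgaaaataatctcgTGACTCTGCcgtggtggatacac
Ugdh (chr5:65435941-65435999, minus strand): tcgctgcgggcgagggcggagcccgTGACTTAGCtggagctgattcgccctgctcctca
Lrtm1 (chr14:29018064-29018122, plus strand): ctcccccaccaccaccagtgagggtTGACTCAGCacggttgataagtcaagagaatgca
Acox2 (chr14:8258999-8259057, minus strand): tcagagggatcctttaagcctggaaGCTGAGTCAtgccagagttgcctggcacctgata
Txnrd1 (chr10:82859089-82859147, plus strand): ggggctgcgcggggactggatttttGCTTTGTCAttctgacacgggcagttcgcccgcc
Nfe2l2 (chr2:75704870-75704913, minus strand): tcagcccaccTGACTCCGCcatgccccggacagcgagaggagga
Gclm (chr3:122245398-122245456, plus strand): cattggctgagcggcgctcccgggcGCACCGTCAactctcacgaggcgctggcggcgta

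The match in Acox2, Txnrd1 and Gclm is on the opposite strand and reads as the reverse complement. Nqo1, Aox1, Ces1g, Ces1b and Cbr3 had no match in these windows, which says only that the letters were absent there.

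Of 21 glutathione S-transferases measured, which join glutathione to electrophiles, 7 had a called difference below 0 and 0 above. Their median difference was -0.79, against 0.01 over all genes. Over all genes 1% were called below 0 and 2.1% above, and these shares belong beside the counts of every list. A count of 0 or 1 is too small to tell a list from them. In Keap1 KD 9 of the 21 transferases were higher, against 0.971% of all genes. In Nrf2 KO limma called 0, and at an unadjusted p under 0.05 there were 6 lower and 2 higher, against 5.16% lower and 3.74% higher of all genes. Gsta1 had levels of 3.31, 3.60 and 3.35 in Nrf2 KO, against 5.22, 4.14 and 3.45 in Nrf2 Control, and 7.26, 7.75 and 6.93 in Keap1 KD, against 4.27, 3.03 and 4.18 in Keap1 Control. The Keap1 KD arrays stood above all others, while the Nrf2 groups overlapped and the controls were widely spread. Its difference was -4.34 ± 0.73 (adjusted p = 0.00704), with an 11.2-fold rise in Keap1 KD. Gsta2 (-4.52), Gstm4 (-3.39), Gstm3 (-3.13), Gstp1 (-2.51), Gstm1 (-2.14) and Gstm2 (-1.97) were also called. Gstm2 was -1.14 with slide as a block and was called in 6 of the 12 fits with 1 array left out. Gstm1 was -1.35 within slides, and its call was lost without Nrf2 Control 1 or 3, Nrf2 KO 1 or 2, or Keap1 KD 1 (highest adjusted p = 0.0642). With slide as a block the list's median was -0.40 and 0 members were called. For Gstm1 and Gstp1 a second probe gave larger differences, -4.14 and -3.35. Close copies within the Gsta, Gstm and Gstp groups may share probe signal, which was not tested.

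Gsta4, which conjugates the lipid peroxidation product hydroxynonenal, rose in Keap1 KD with no call in the difference. Its levels were 1.93, 2.21 and 2.20 in Nrf2 KO, against 2.36, 1.79 and 1.51 in Nrf2 Control, and 3.34, 3.75 and 3.14 in Keap1 KD, against 2.42, 1.23 and 2.26 in Keap1 Control. The Keap1 effect was 1.44 (adjusted p = 0.00807), and the difference was -1.21 (95% interval -2.04 to -0.37, adjusted p = 0.113). Mgst3, a microsomal member of the family, was higher in Keap1 KD (0.99, adjusted p = 0.00535) with an Nrf2 effect of 0.46, and its sum of effects was called (1.45, adjusted p = 0.0325). Its difference was not (-0.53, adjusted p = 0.284).

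Of 18 genes of glutathione synthesis and recycling, 4 had a called difference below 0 and 0 above, and the list's median was -0.41. Gpx2, a glutathione peroxidase best known from the gut lining, had levels of -3.76, -3.34 and -3.89 in Nrf2 KO, against -1.07, -3.16 and -3.69 in Nrf2 Control, and 2.47, 2.06 and 1.93 in Keap1 KD, against -3.25, -1.35 and -1.44 in Keap1 Control. It was low in 9 arrays and high in the 3 Keap1 KD arrays, where it was 17.9-fold higher (difference -5.19 ± 0.80, adjusted p = 0.00451). Gsr, which restores reduced glutathione, had a difference of -1.65 ± 0.22 (adjusted p = 0.00135) and no overlap in either line. Gpx4, which reduces lipid peroxides, had -1.02 and lost its call without Nrf2 KO 1 or 3 or Keap1 KD 1. Gclc, the catalytic subunit of the enzyme that limits glutathione synthesis, had 3.81, 3.85 and 4.01 in Nrf2 KO, against 4.30, 4.47 and 4.28 in Nrf2 Control, and 5.86, 5.47 and 6.05 in Keap1 KD, against 4.30, 4.96 and 5.06 in Keap1 Control. Its difference was -1.47 ± 0.30 (adjusted p = 0.0188), with a 2.02-fold rise in Keap1 KD, and it missed the threshold without Nrf2 KO 1 (adjusted p = 0.0532).

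Gclm, the modifier subunit of the same enzyme, did not follow. Its levels were 1.27, 1.35 and 1.28 in Nrf2 KO, against 1.73, 1.06 and 1.45 in Nrf2 Control, and 1.78, 1.33 and 1.76 in Keap1 KD, against 1.29, 1.5 and 1.31 in Keap1 Control. The groups overlapped in both lines, and the difference was -0.37 with a 95% interval of -1.0 to 0.26 (adjusted p = 0.584). Hmox1, which breaks down heme and is a known NRF2 target, had a difference of 0.30 with an interval of -0.52 to 1.11 (adjusted p = 0.774), and its sign turned to -0.07 with array median scaling. That scaling moved the median difference of all genes to -0.35, so Hmox1 stayed above that median. Both intervals are wide, so that a modest effect could not be seen with 3 arrays a group.

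Quinone and carbonyl reductases had 4 called differences below 0 of 20 measured, with a median of -0.20. Beside Cbr3 and Nqo1 these were Akr1b8 (-1.54, adjusted p = 0.0334) and Akr1a1 (-0.85, adjusted p = 0.0149), aldo-keto reductases that rose 2.23-fold and 1.49-fold in Keap1 KD. Akr1b8 was called in 2 of the 12 fits with 1 array left out, and Akr1a1 in all but that without Nrf2 KO 1. With quantile normalization the list had 2 calls and a median of -0.0045, with normexp and quantile normalization 2 and -0.024, and with slide as a block 2 and -0.0023.

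Of 16 genes of the thioredoxin and peroxiredoxin system, which keeps protein thiols reduced, 3 had a called difference below 0 and 0 above. Srxn1, the sulfiredoxin that repairs overoxidised peroxiredoxins, had levels of 2.43, 2.31 and 2.61 in Nrf2 KO, against 3.63, 3.66 and 3.41 in Nrf2 Control, and 4.68, 5.34 and 5.39 in Keap1 KD, against 3.02, 2.92 and 3.29 in Keap1 Control. The groups were apart in both lines, and the difference was -3.18 ± 0.36 (adjusted p = 0.000357). Its Nrf2 effect of -1.12 was not called (adjusted p = 0.183), although the Nrf2 groups did not overlap. Txnrd1, a thioredoxin reductase, and its substrate Txn1 had differences of -1.56 and -1.17. Of 12 enzymes that supply NADPH 1 was called, Pgd of the pentose phosphate pathway (-1.20, adjusted p = 0.025), with an Nrf2 effect of -0.06. Its call was lost with quantile normalization and without Nrf2 KO 1, Nrf2 Control 3, Keap1 KD 1 or Keap1 Control 3. In heme and iron handling 2 of 22 were called, the ferritin light chain Ftl1 (-1.40) and the heme carrier Slc48a1 (-1.39).

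Conjugation with glucuronic acid had the lowest list median, -1.07 over 16 genes, of which 6 were called below 0 and 0 above. Ugdh, which makes the UDP-glucuronic acid that this reaction uses, had levels of 3.03, 3.34 and 3.32 in Nrf2 KO, against 4.44, 4.57 and 4.08 in Nrf2 Control, and 6.32, 6.28 and 5.99 in Keap1 KD, against 4.58, 4.19 and 4.05 in Keap1 Control. Its groups were apart in both lines, and its difference was -3.05 ± 0.35 (adjusted p = 0.000444). Ugt2b35 (-3.69), Ugt2b1 (-3.00), Ugt2b37 (-2.18) and Ugt2b5 (-2.01) are transferases of 1 gene cluster with similar sequences, and Slc35d1 (-1.83) carries UDP-sugars into the endoplasmic reticulum. Ugt2b37 and Ugt2b5 were not called in the Keap1 effect (adjusted p = 0.32 and 0.135), and the difference of Ugt2b37 was called in 1 of the 12 fits with 1 array left out (highest adjusted p = 0.106). Of 14 sulfotransferases, which serve the other main route of conjugation, 0 were called below 0 and 1 above, Sult1c2 (1.53, adjusted p = 0.0392), which was called in 3 of those 12 fits and not with array median scaling.

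Hydrolases and oxidases of drug metabolism had the most called members, 9 of 33 below 0 and 0 above, with a median of -0.36. The median was -0.20 with quantile normalization and -0.18 with normexp as well, and with slide as a block it was -0.15 with 2 calls. They also held 4 of the 10 genes lower in Nrf2 KO, Aox1, Ces1b, Ces1f and Ces1g. Ces2b had levels of 0.42, 1.22 and 1.10 in Nrf2 KO, against 3.82, 2.66 and 2.57 in Nrf2 Control, and 4.87, 4.69 and 4.32 in Keap1 KD, against 2.97, 0.09 and 2.05 in Keap1 Control. Groups were apart in both lines, but the Keap1 Control arrays were spread over several log2 units, and the difference was -5.03 ± 0.79 (adjusted p = 0.00532). Ephx1, the microsomal epoxide hydrolase, had a difference of -2.73 ± 0.44 (adjusted p = 0.0065). Aox3, a neighbour of Aox1 in sequence and function, had a difference of -1.79 made almost wholly of its Nrf2 effect (-1.71, against a Keap1 effect of 0.07), though neither effect was called. The difference of Aox3 was called in 3 of the 12 fits with 1 array left out, and that of Aldh1a7 (-1.71), an aldehyde dehydrogenase of the list, in 4. Of 40 genes of the CAR and PXR receptors and their cytochromes P450, 0 were called in the difference by limma, with 4 below and 1 above 0 at an unadjusted p under 0.05, where 6.88% of all genes were below and 10.3% above.

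Among 21 efflux pumps and uptake carriers 4 were called below 0 and 0 above. Abcc4, an exporter at the sinusoidal face of hepatocytes, had levels of -0.78, -1.32 and -0.89 in Nrf2 KO, against -0.33, -1.17 and -1.21 in Nrf2 Control, and 1.59, 2.46 and 2.98 in Keap1 KD, against -0.87, -0.94 and 0.07 in Keap1 Control. The Keap1 KD arrays alone were high, with a 7.59-fold rise and an Nrf2 effect of -0.09 (adjusted p = 0.973). The sum of 2.83 missed the threshold (95% interval 1.51 to 4.15, adjusted p = 0.082), so Abcc4 did not count as moved more by Keap1 lowering. Abcc3, another exporter of conjugates at that face, had 3.32, 3.55 and 4.19 in Nrf2 KO, against 5.40, 4.59 and 4.76 in Nrf2 Control, and 6.48, 5.96 and 6.58 in Keap1 KD, against 4.79, 4.71 and 4.92 in Keap1 Control. Its groups were apart in both lines and its difference was -2.76 ± 0.35 (adjusted p = 0.001). Abcg2, an exporter at the canalicular face, was also called, with a difference of -2.41.

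**Figure D3:**
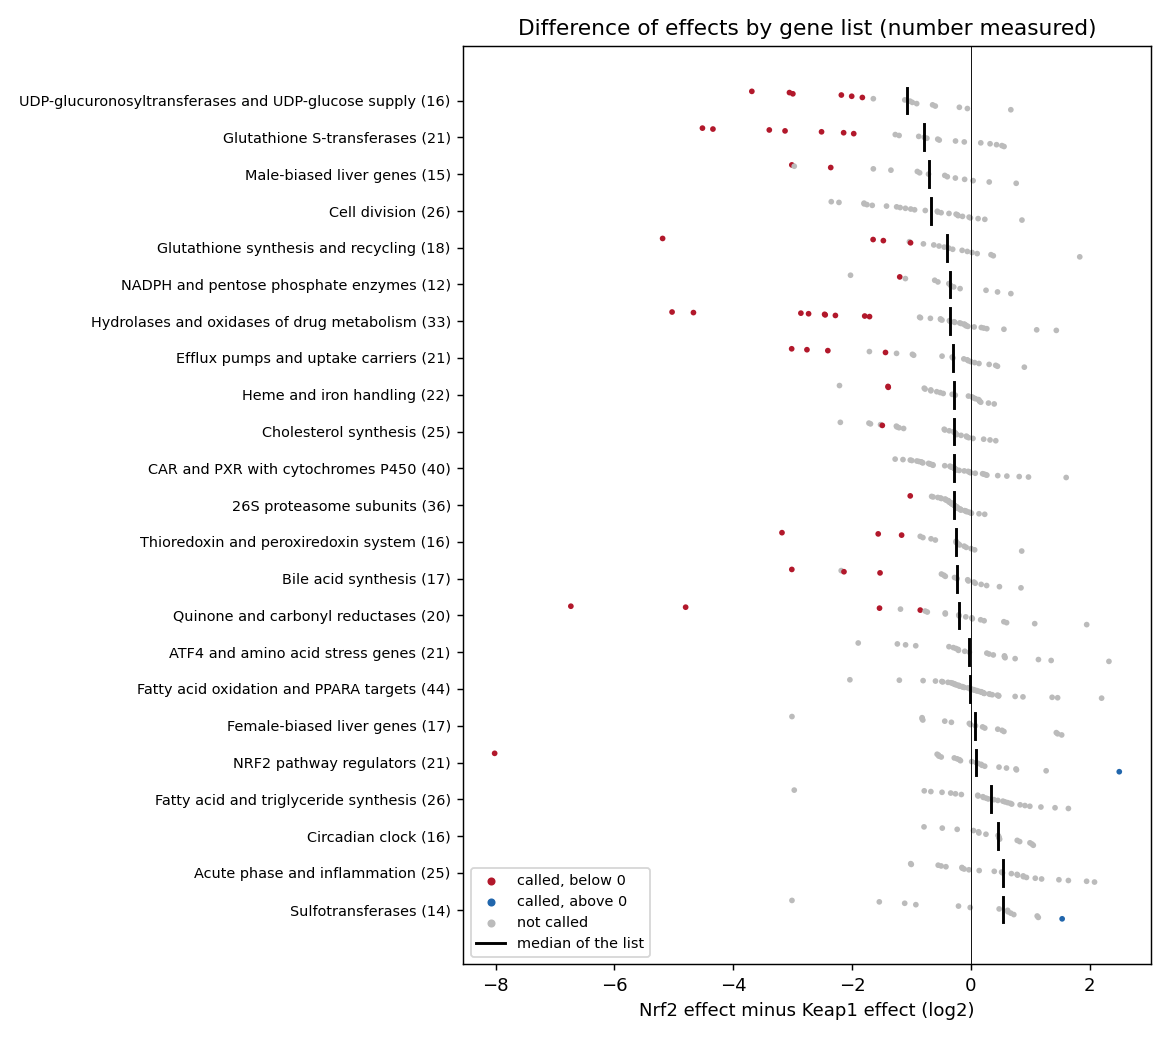
The difference of effects (x axis, log2) is plotted for every measured member of 23 gene lists, with the number measured after each name. Red points are called below 0, blue points called above 0, grey points not called, and black bars are list medians. The lists of glucuronidation and glutathione S-transferases stand at the top with medians of -1.07 and -0.79, and of the members of these lists only Keap1 and Sult1c2 were called above 0.

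In the main scaling the list with the most calls outside detoxification was bile acid synthesis. Its share was near that of the thioredoxin system, 3 of 16, and of carriers, 4 of 21. With slide as a block it kept 2 calls. Of 17 genes of bile acid synthesis 3 were called below 0, Cyp7b1 (-3.01, adjusted p = 0.00724), a hydroxylase of the alternative pathway, and Acox2 (-2.14, adjusted p = 0.0134) and Hsd3b7 (-1.53, adjusted p = 0.0111), which act on the side chain and the ring. Acox2 had levels of 3.84, 3.48 and 3.47 in Nrf2 KO, against 4.63, 4.59 and 4.72 in Nrf2 Control, and 5.50, 5.16 and 5.20 in Keap1 KD, against 3.75, 5.09 and 3.77 in Keap1 Control. Its groups were apart in both lines by a step that Keap1 Control 2 narrowed. Cyp7b1 is higher in male than in female liver, and with Susd4 (-2.36) it was 1 of 2 called of 15 male-biased genes; that of Susd4 was lost without Nrf2 KO 1, Nrf2 Control 3 or Keap1 Control 3. Of 17 female-biased genes limma called 0, with 1 below and 1 above 0 at an unadjusted p under 0.05, or 2 of 17 against 6.88% and 10.3% of all genes.

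Of 36 subunits of the proteasome 1 was called, the catalytic subunit Psmb5 (-1.02, adjusted p = 0.0369), and the list's median was -0.28. Over all genes 3.11% were called, 1% below and 2.1% above 0, and 0 or 1 call in a list does not stand apart from that. Psmb5 was called in 3 of the 12 fits with 1 array left out, and the median was -0.10 with quantile normalization and -0.095 with normexp as well. Of 25 genes of cholesterol synthesis Mvk was called (-1.49, adjusted p = 0.0172), though not without Nrf2 KO 1. In the lists of fatty acid synthesis (26 genes), fatty acid oxidation (44), ATF4 targets (21), acute phase (25), cell division (26) and the circadian clock (16) 0 genes were called in the difference with limma. At an unadjusted p under 0.05 the counts below and above 0 were 1 and 4 in fatty acid synthesis, 2 and 1 in fatty acid oxidation, 0 and 3 among ATF4 targets, 1 and 5 in the acute phase, 8 and 0 in cell division, and 0 and 1 in the clock, and over all genes the shares were 6.88% below and 10.3% above. With array median scaling 3 genes of cell division and 1 of fatty acid oxidation were called below 0, and with normexp and quantile normalization 1 acute phase gene above. The median of fatty acid synthesis was 0.34 and became 1.24 with slide as a block, and that of the clock was 0.46 and became 0.97. In the same order the medians were -0.67 and -0.85 in cell division and 0.53 and 0.09 in the acute phase. They were -0.03 and -0.16 among ATF4 targets and -0.01 and -0.18 in fatty acid oxidation. Male-biased genes had -0.71 and -0.82. In the main fit cell division and male-biased genes thus had lower medians than glutathione synthesis (-0.41). Regulators of the pathway other than the targeted genes were not called, which left Nfe2l2 and Keap1 as 2 of 21. The difference of Keap1 was not called with array median scaling or with slide as a block. With slide as a block 0 members were called in the lists of glutathione synthesis, thioredoxin, NADPH supply, heme and iron, glucuronidation, sulfotransferases, carriers, the proteasome, cholesterol synthesis and male-biased genes.

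Lrtm1, a membrane protein with leucine-rich repeats that belongs to no list here, was 1 of the 8 genes with a symbol and above background on all 12 arrays that had the lowest differences. Its levels were -1.46, -1.10 and -1.28 in Nrf2 KO, against 0.62, 2.11 and 1.27 in Nrf2 Control, and 2.13, 3.46 and 2.01 in Keap1 KD, against 1.89, 0.55 and 0.21 in Keap1 Control. The difference was -4.27 ± 1.0 (adjusted p = 0.0347) with neither effect called, and it was called in 3 of the 12 fits with 1 array left out.

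The highest differences among genes with a symbol and above background on all 12 arrays belonged to Ptgds, Crym, Adam11, Keap1, Hspa2, Btg2, Cox7a1 and Egr1. Ptgds, a prostaglandin D2 synthase, had levels of 2.03, 2.08 and 1.67 in Nrf2 KO, against -0.32, 0.99 and -0.54 in Nrf2 Control, and -1.57, -1.04 and -2.06 in Keap1 KD, against 0.93, 0.14 and -0.07 in Keap1 Control. The groups were apart in opposite directions and the difference was 3.77 ± 0.93 (adjusted p = 0.0409), with neither effect called. Crym, a thyroid hormone binding protein, had 2.64, 2.50 and 0.34 in Nrf2 KO, against -0.59, -1.19 and -1.10 in Nrf2 Control, and overlapping Keap1 groups (difference 3.04 ± 0.77, adjusted p = 0.0446). Egr1 and Btg2, immediate early genes that respond to stress and handling, had differences of 2.26 and 2.47 and overlapping Keap1 groups. Adam11 (2.51) and the heat shock protein Hspa2 (2.48) were apart in both lines. Of these 8, Cox7a1 and Keap1 were called in all 12 fits with 1 array left out, Hspa2 in 10, Adam11 in 5, Crym, Egr1 and Ptgds in 2 each, and Btg2 in 1.

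Most of the 373 genes above 0 followed the Keap1 line: 312 were lower in Keap1 KD and 1 was called in the Nrf2 effect. In 131 of them at least 1 group had no array above background, and among probes above background on all arrays the count was 159. The median Nrf2 effect of the 373 was 0.43 and the median Keap1 effect -1.45. Among the 178 genes below 0 the medians were -0.71 and 0.87, 100 were called in the Keap1 effect, 10 in the Nrf2 effect and 73 in neither. Opposite signs in 175 of the 178 follow in part from choosing genes by the difference.

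Within slides every called gene kept its direction. The difference over the 7 arrays that share slides had the same sign for all 178 genes below 0 (median -1.69, against -1.73 over all arrays) and all 373 above 0. These 7 arrays also enter the full difference, so this is no independent check, and of all genes 78.0% kept their sign. With slide as a block 20 of the 551 calls remained, 15 below and 5 above 0. Among named genes these were Cbr3, Aox1, Nqo1, Ces1b, Htatip2, Acox2, Hsd3b7, Nfe2l2 and Cox7a1, and the differences with the block were -6.93 for Cbr3, -4.80 for Aox1, -4.21 for Nqo1 and -2.18 for Ces1b. With the block Cyp7b1 was -1.80 and Ces2b -3.04, both more than 1.5 times nearer to 0, and neither was called (adjusted p = 0.291 and 0.229). With slide as a block 3 of the 11 Nrf2 effects were called, Nfe2l2, Aox1 and NAP030039-1. These blocked Nrf2 effects rest on Keap1 Control 1 as the link to the Nrf2 controls, and the part of slide in kept or lost calls was not tested.

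**Figure D4:**
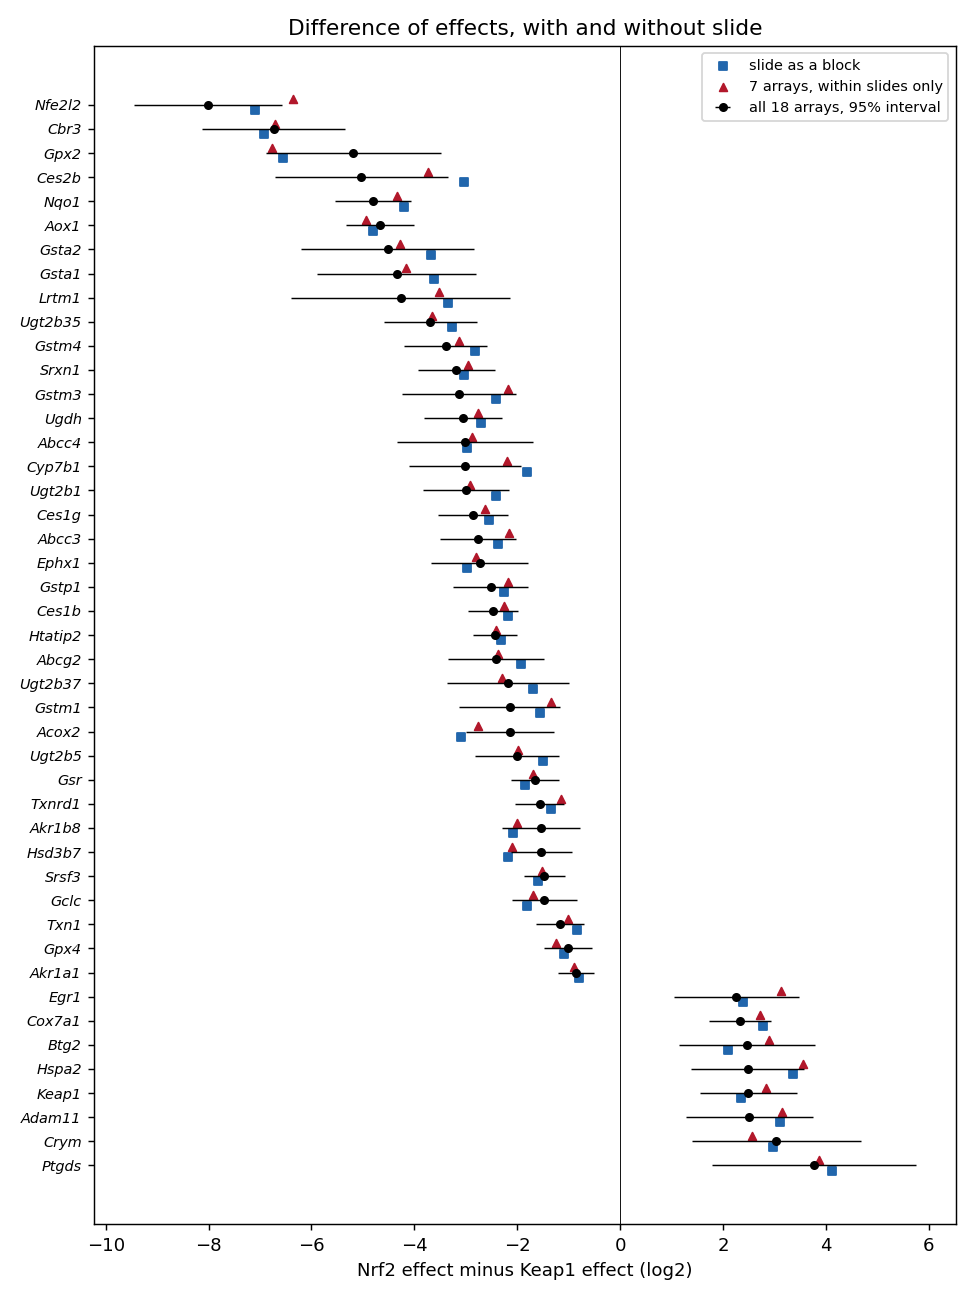
For 45 named genes with a called difference, the difference of effects (x axis, log2) is plotted over all 18 arrays with its 95% interval (black), with slide as a block (blue squares) and over the 7 arrays within slides only (red triangles). All 3 values lie on the same side of 0 for each gene.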

How the data were processed

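Per the labels, 500 ng of liver RNA per sample was labelled with Cy3. Per the file headers, the deposited intensity values are Agilent Feature Extraction (10.7.3.1) processed signals, background-subtracted and detrended but not normalized between arrays, with flags as other output. The authors' series table held equal intensity values. Controls and outlier spots were left out, log2 of the deposited signals was averaged per probe and scaled to the array's 75th percentile. Symbols were found for 26718 of 41174 probes. A probe was kept if a whole group of arrays showed it well above background, and the brightest probe stood for its gene, leaving 17721 genes. Linear models with 6 group means over 18 arrays were fitted in limma (3.58.1, R 4.3.3; 12 residual degrees of freedom), with Benjamini-Hochberg adjustment. The number of arrays limits the precision.

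Members, lists and named genes were chosen with earlier results of these data known. Named were 13 fixed genes, the 8 highest and 8 lowest differences, members of each class, and up to 5 called genes of each list with at least 3 calls; genes outside this rule were named after their values were seen. Of the genes the rule chose, 1 is not reported here, though it stays in the counts. Lists have no test. The script was tested on simulated data. Alternatives were other scalings, filters, probes, weights, blocks and arrays left out; values within slides were added after seeing the data. Normexp used median signals. Same-numbered arrays correlated at -0.36 to 0.15 in their deviations, over 0.1 in 2 of 12 pairs, and were not taken as pairs.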

Additional observations from a re-analysis of the deposited data

How the results depend on the processing

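Counts are given for differences below and above 0, then for the other results that moved, where "more by loss" and "more by lowering" are genes moved more by Nrf2 loss and by Keap1 lowering. Quantile normalization gave 137 above 0 and 403 genes lower in Keap1 KD. Array median scaling gave 298 and 114, 22 Nrf2 calls, 350 higher and 352 lower in Keap1 KD, 11 opposed and 1 more by loss, and turned the Hmox1 difference to -0.0676. Normexp with quantile normalization gave 97 above 0, 378 lower in Keap1 KD and 15 more by lowering. Without a filter on background the counts were 74 and 87, 94 higher and 530 lower in Keap1 KD, 3 sums, 2 opposed and 1 more by lowering. With probes above background on all arrays they were 159 above 0, 316 lower in Keap1 KD, 10 sums and 3 more by lowering. The 12 arrays of both lines alone gave 98 and 125, 7 Nrf2 calls, 110 higher and 451 lower in Keap1 KD, 3 sums, 2 opposed and 1 more by lowering. Array quality weights gave 70 Nrf2 calls, 73 higher and 178 lower in Keap1 KD, 13 sums, 13 opposed and 4 more by lowering. Slide as a block gave 20 and 7, 11 higher and 46 lower in Keap1 KD, 4 sums, 1 opposed, 2 in the same direction, 1 more by loss and 0 more by lowering. Scan date as a block gave 53 and 25, 7 Nrf2 calls, 56 higher and 202 lower in Keap1 KD, 2 sums, 1 opposed, 2 in the same direction, 0 more by loss and 0 more by lowering. The cause of these shifts was not tested, except that a fit of fewer arrays has fewer degrees of freedom. The authors' series table changed no value.

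With the replicate number as a block there were 182 differences below and 289 above 0, and 11 sums against 25 without it; the numbers do not pair the arrays. Leaving out 1 array gave 82 to 168 below and 96 to 498 above 0, 6 to 20 Nrf2 calls, 94 to 205 higher and 262 to 929 lower in Keap1 KD, 5 to 159 sums, 2 to 9 opposed, 0 to 1 in the same direction, 2 to 4 more by loss and 1 to 41 more by lowering. Of the 46 genes that the naming rule chose and that were called in the difference, 33 were called in all 12 of these fits and 9 with slide as a block. Signal over background limits the counts above 0: in 131 of the 373 genes at least 1 group had no array above background.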

Other observations

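Some genes outside the lists kept their call in the difference of effects with slide as a block, and were named after their values were seen. Ethe1, a mitochondrial persulfide dioxygenase of sulfide breakdown, had a difference of -1.95 (-2.39 with the block, adjusted p = 0.0385) with effects of -0.73 in the Nrf2 line and 1.22 in the Keap1 line. Slc39a5, a zinc importer, had a difference of -2.27 (-3.18 with the block, adjusted p = 0.0465). Nudt11, a phosphohydrolase of inositol pyrophosphates, was well above background on the Keap1 KD arrays alone, where it was at least 7.16-fold higher than in Keap1 Control (adjusted p = 0.000573); both Nrf2 groups were below background, so its Nrf2 effect and difference are not given. Ncald, a calcium sensor best known from neurons, had -1.58 (-2.48 with the block, adjusted p = 0.0494). Above 0 were Emp2, a membrane protein (1.5, and 2.03 with the block, adjusted p = 0.0471), and H2-Q1, of the class I major histocompatibility complex (1.99, and 2.81 with the block, adjusted p = 0.0447). The Keap1 line is labelled as of mixed strain, and the part of strain in the H2-Q1 value was not tested.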
